A study of Mus musculus with 4 samples.

Results

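The extracellular antagonists of bone morphogenetic proteins (BMPs) and activins were followed by RNA sequencing in a mouse myoblast line, C2C12. The 9 genes were chosen by name: Grem1, Nog, Chrd, Twsg1 and Nbl1, whose products bind BMPs, Fst, Fstl1 and Fstl3 of the follistatin group, and Bambi. Bambi is a membrane pseudoreceptor and not a secreted protein, so 8 of the 9 encode secreted products. All 9 were found among the 51826 gene identifiers of the deposited count table, and 8 were among the 15467 genes with enough counts to be tested. Growing wild-type cells of this 1 line received vehicle or recombinant GDF10, which is a TGF-beta superfamily ligand, and were collected after 6 h in growth medium. There were 2 libraries per group, called biological replicates by the labels, and the sources used here do not give the dose.

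BMPs and activins signal by bringing together type I and type II serine kinase receptors, which phosphorylate SMAD proteins. Antagonists act before the receptor: gremlin, noggin, chordin and the DAN protein of Nbl1 hold BMPs away from it. Follistatin and the Fstl3 product do so for activins and related ligands. Twisted gastrulation, from Twsg1, binds BMP together with chordin and can either help or hinder signalling. In muscle, follistatin is known for promoting growth, and C2C12 cells are known for turning to an osteoblast fate when BMP is added. Several antagonist genes are themselves known targets of the pathways they restrain.

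Libraries held 29641165 to 35597310 counts. Of 12 myoblast markers, Myod1, Myf5, Des, Cdh15, Itga7, Vcam1, Ncam1, Sdc4 and Met were present in every library, for example Myod1 with 1634 to 1982 counts. Pax3 had only 7 to 20 counts. Pax7, of satellite cells, and Chodl had 0 counts in all 4 libraries. A protocol label names longissimus dorsi muscle where the other labels name C2C12. The 10 mature muscle markers summed to 139 and 155 CPM (counts scaled to the library's total) with vehicle and 167 in each GDF10 library, led by Actn3 (2027 to 2561 counts) and Mylpf (1588 to 1974 counts), while the fast myosin Myh4 had at most 4 counts in any library. The 10 fibroblast markers summed to 4096 to 4677 CPM, mostly collagens, with Postn at 6432 to 8871, Pdgfra at 1760 to 2195 and Dcn at 922 to 1194 counts, and Thy1, Lum and Tcf21 at 0 to 2 counts. The 8 immune and blood markers summed to 7.84 to 9.61 CPM and the 8 endothelial and epithelial markers to 5.91 to 9.18 CPM, with Cd3e, Adgre1, Hbb-bs and Epcam at 0. The counted ones included Hba-a1 (149 and 125 counts with vehicle, 183 and 164 with GDF10), Cd68 (81 to 122 counts) and the keratin gene Krt8 (117 and 141, then 178 and 214 counts; log2 fold change 0.59, edgeR unadjusted p = 0.0314, adjusted p = 0.825). Whether these marker counts came from C2C12 cells or from other cells was not tested, nor was any part of other cells in the results below.

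The myoblasts made abundant mRNA for 5 of the antagonists and little or none for the other 4. Levels were compared between genes as CPM per kb of exon, the union of all annotated exons. Fstl1 stood highest, at 165 and 185 CPM per kb with vehicle and 168 and 178 with GDF10, above 98.0% of the genes tested. Grem1 came next, at 85.7 and 90.1 with vehicle and 64.2 and 74.5 CPM per kb with GDF10. Nbl1 stood at 58.4 and 59.0 with vehicle and 62.3 and 61.6 CPM per kb with GDF10. These 3 genes lay above 94.2% or more of the genes tested, whose median was 4.99 CPM per kb.

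Fstl3 and Twsg1 formed a middle pair, at 20.8 to 23.5 and 19.4 to 20.1 CPM per kb over the 4 libraries. The scarce genes were Chrd at 0.461 to 0.602, Fst at 0.243 to 0.364 and Bambi at 0.0799 to 0.154 CPM per kb. Nog was nearly silent, with 2 reads in vehicle replicate 2 and 0 in the other 3 libraries. A count of 0 allows a level of up to 3 counts, in those 3 libraries 0.084 to 0.1 CPM, counting error alone being covered. From Fstl1 down to Bambi the order was the same in all 4 libraries, and no 2 neighbours had overlapping ranges. The closest neighbours were Fstl3 and Twsg1, with a ratio of 1.03 to 1.21 within a library, and Grem1 and Nbl1, with 1.03 to 1.53. Per kb of the longest transcript, a choice made after the data were seen, the ratio of Grem1 to Nbl1 was 0.909 to 1.35, so their order depends on the transcript length assumed.

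**Figure D1:**
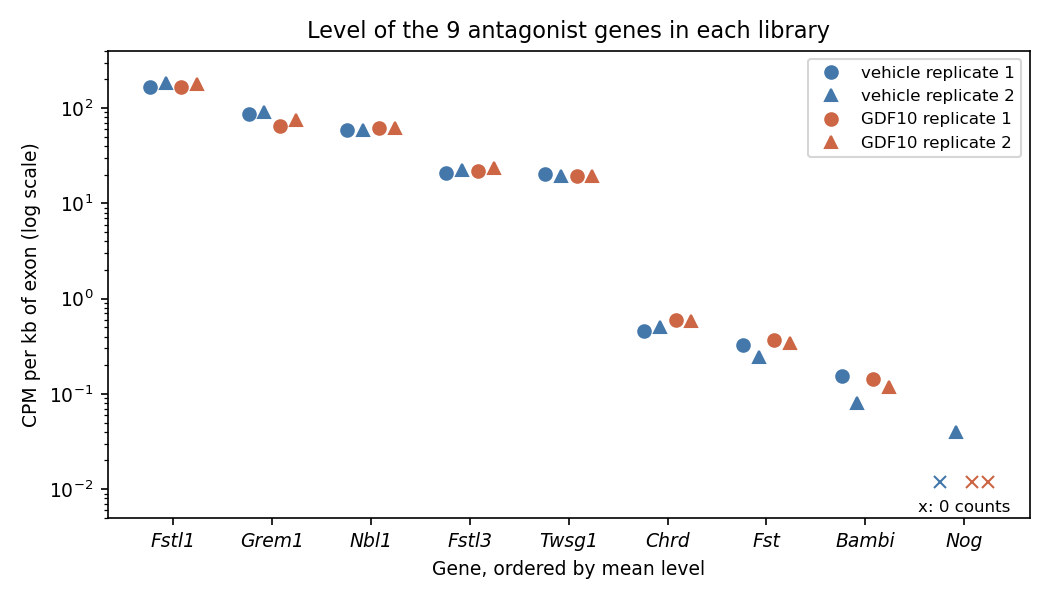
Level of each antagonist gene in each library, in CPM per kb of exon on a log axis, with circles and triangles for replicates 1 and 2 and crosses for 0 counts. Fstl1, Grem1, Nbl1, Fstl3 and Twsg1 lie between 19.4 and 185 CPM per kb, and Chrd, Fst, Bambi and Nog below 1.

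The comparison asked whether 6 h with GDF10 changed the mRNA of these antagonists. No antagonist passed the test. Grem1 was the member with the smallest p, 1.27-fold lower with GDF10, and the remaining 7 tested members differed by log2 fold changes between −0.03 and 0.30. With edgeR's quasi-likelihood test, 0 of the 8 tested members had a Benjamini-Hochberg adjusted p under 0.05, beside 25 of all genes tested, or 0.162%. DESeq2 and limma-voom also called 0 members. At an unadjusted p under 0.05 there was 1 member, Grem1, beside 5.94% of all genes tested.

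The groups did not overlap in 5 of the 8 tested members, beside 38.2% of all genes tested. Of these, 3 were higher with GDF10, beside 18.8% of all genes, and 2 lower, beside 19.4%. The median log2 fold change of the 8 was 0.07, against 0.00 over all genes tested, with 5 positive and 3 negative. All p-values reflect only the spread among the 4 libraries. Counts were simulated from the gene means of these libraries, with the average spread fitted for genes of each level. Spread particular to a gene and trends with GC content or exon length were left out. For genes with a mean of at least 1 CPM, the test found 30.8% of 1.5-fold, 75.1% of 2-fold and 98.5% of 4-fold changes.

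**Figure D2:**
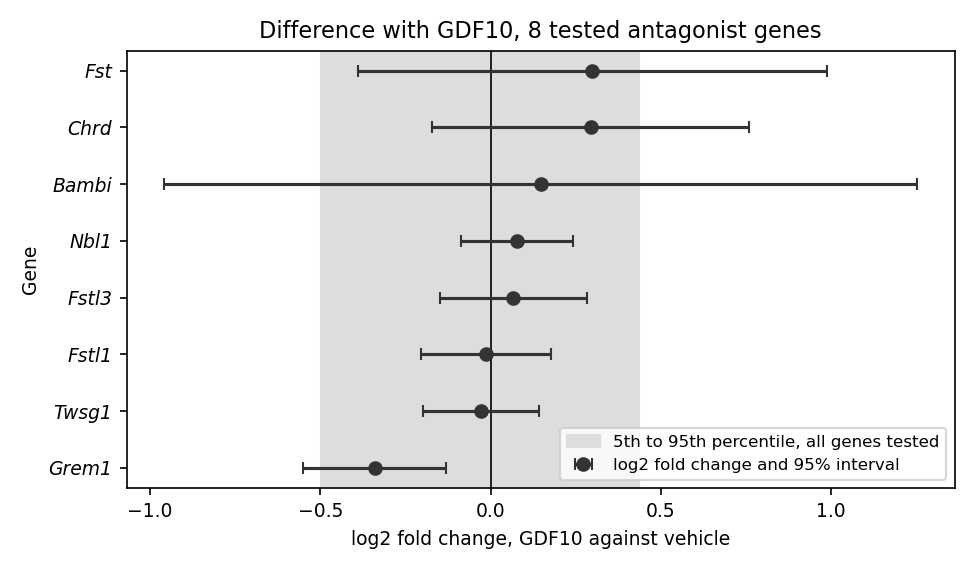
Log2 fold change of each tested antagonist gene, GDF10 against vehicle, with its 95% interval from edgeR, over a grey band that spans the 5th to 95th percentile of all 15467 genes tested (−0.50 to 0.44). All 8 point estimates lie inside the band, and the interval of Grem1 alone leaves out 0.

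Grem1 encodes gremlin 1, a cystine-knot protein that binds BMP2, BMP4 and BMP7 and keeps them from their receptors. The gene (ENSMUSG00000074934) lies on chromosome 2 of mm10, from 113746164 to 113758646 on the minus strand, and shares no exon bases with another gene. Its counts were 12698 and 11059 under vehicle, and 7983 and 10778 under GDF10. Scaled for depth these were 355 and 374 CPM with vehicle and 266 and 309 CPM with GDF10. Both GDF10 libraries thus lay below both vehicle libraries, with GDF10 replicate 1 the lowest.

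The group means of Grem1 were 365 ± 12.9 and 288 ± 30.3 CPM (SD, n = 2 per group). The log2 fold change was −0.34 with a standard error of 0.09 and a 95% interval of −0.55 to −0.13. In edgeR the unadjusted p was 0.00604, rank 131 of the 15467 genes, and the adjusted p was 0.700. Without GDF10 replicate 2 Grem1 passed, with a log2 fold change of −0.45 and an edgeR adjusted p of 0.0230. In that fit the GDF10 group is 1 library, the one with the lowest Grem1, which is assumed to vary like the vehicle pair, and 224 genes were called in place of 25. Without vehicle replicate 2 the unadjusted p was 0.0501, and 0.0230 was the smallest adjusted p over the 15 alternatives, the next being 0.268. Without GDF10 replicate 1, the library with the lowest Grem1, the log2 fold change was smaller, at −0.24. In bulk RNA, fewer cells that express the gene and less RNA per cell cannot be told apart.

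**Figure D3:**
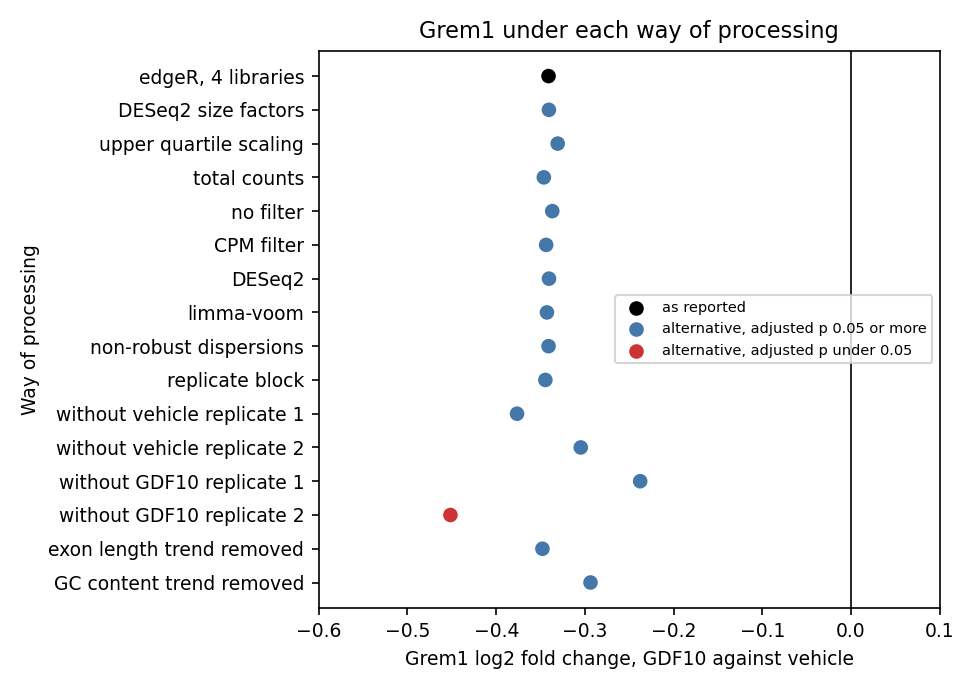
Log2 fold change of Grem1, GDF10 against vehicle, under each way of processing the counts. All 16 values are negative, between −0.45 and −0.24, and the red point (without GDF10 replicate 2) is the only one with an adjusted p under 0.05.

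The trend with GC content moved with the groups, while the trend with exon length set GDF10 replicate 1 apart from the other libraries. Deviations from the mean of the 4 libraries were set against GC content across 15431 genes, which share their libraries and so are not independent. The Spearman correlation was −0.15 and −0.20 for vehicle replicates 1 and 2, and 0.15 and 0.17 for GDF10 replicates 1 and 2. For exon length the values were 0.11 and 0.20 in the vehicle libraries, −0.33 in GDF10 replicate 1 and 0.08 in GDF10 replicate 2. The longest Grem1 transcript has a GC content of 44.7%. The log2 fold change of Grem1 was −0.29 with the GC trend removed and −0.35 with the length trend removed, with adjusted p-values of 0.929 and 0.542 in limma.

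Upstream sequence is shown for Grem1, the most different member, and for Chrd, the member with the next smallest p, which differed in the other direction. Both runs are the 250 bases before the RefSeq start, 5′ to 3′ on the gene's strand, from RefSeq's GRCm38.p6 annotation; RefSeq entries matched 6 of the 9 members. Capitals mark the SMAD box GTCT on either strand (read as AGAC on the other) and the GC-rich GGCGCC, a motif that reads the same on both strands.
Grem1, chr2:113758649-113758898, minus strand: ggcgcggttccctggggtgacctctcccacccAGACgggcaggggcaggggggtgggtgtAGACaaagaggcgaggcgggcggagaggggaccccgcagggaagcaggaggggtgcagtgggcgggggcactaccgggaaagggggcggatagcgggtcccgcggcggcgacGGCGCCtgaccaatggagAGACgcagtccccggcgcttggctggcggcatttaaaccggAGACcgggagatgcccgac
Chrd, chr16:20732877-20733126, plus strand: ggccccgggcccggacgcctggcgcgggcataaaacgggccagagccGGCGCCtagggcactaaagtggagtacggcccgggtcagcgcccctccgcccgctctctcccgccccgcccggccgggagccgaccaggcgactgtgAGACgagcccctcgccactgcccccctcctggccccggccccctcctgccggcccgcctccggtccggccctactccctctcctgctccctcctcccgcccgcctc

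The Grem1 window held 4 SMAD boxes and 1 GGCGCC, and the Chrd window 1 of each. Over the 32851 windows of 250 bases in the RefSeq table, 82.9% held at least 1 SMAD box, with a median of 2, and 9.59% held GGCGCC. Both windows were rich in GC, with 72.0% for Grem1 and 78.0% for Chrd against a median of 52.4%, and held 24 and 28 CpG sites against a median of 6. The other members with such a window also lay above both medians. Over all members with a window, GC ran from 64.4% to 78.0% and CpG sites from 16 to 36. So abundant members and the scarce Chrd shared a CpG-rich upstream sequence. A motif match describes the letters only.

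Nbl1 encodes the founding DAN-family protein, a relative of gremlin that binds BMPs. Its level was 119 and 120 CPM (4243 and 3551 counts) with vehicle and 127 and 125 CPM (3798 and 4368 counts) with GDF10. The groups did not overlap, but the difference was small, with a log2 fold change of 0.08 (95% interval −0.09 to 0.24; edgeR adjusted p = 0.866), and it was 0.02 with the GC trend removed. Within each library Grem1 exceeded Nbl1 per kb 1.47-fold and 1.53-fold with vehicle and 1.03-fold and 1.21-fold with GDF10.

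Chrd encodes chordin, which holds BMPs in a complex that tolloid proteases such as the Bmp1 product cleave to free them. The vehicle libraries held 103 and 93 counts, the GDF10 libraries 113 and 126, or 2.88 and 3.14 against 3.77 and 3.61 CPM. Both GDF10 libraries lay above both vehicle libraries. The log2 fold change was 0.29 with a standard error of 0.20 and an interval of −0.17 to 0.76 (edgeR unadjusted p = 0.180, adjusted p = 0.845). Of its exon bases, 239 (3.82%) are shared with Thpo on the other strand, which had 8 to 18 counts.

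Twsg1, the partner of chordin, had the smallest range of CPM relative to its level among the 8 tested members, at 104 and 101 CPM with vehicle and 100.1 and 100.5 CPM with GDF10. Its log2 fold change was −0.03 (95% interval −0.20 to 0.14; edgeR adjusted p = 0.960), so the groups, though they did not overlap, differed by less than the interval allows to be told from 0. Twsg1 exceeded Chrd per kb 43.6-fold and 39.0-fold with vehicle and 32.3-fold and 33.8-fold with GDF10. Nog, which encodes noggin, a BMP antagonist with high affinity for BMP2 and BMP4, gave no difference that could be detected at this depth. Its 2 reads have an exact Poisson 95% interval of 0.242 to 7.22 reads.

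The 5 secreted BMP binders summed to 165 and 169 CPM per kb with vehicle and 147 and 156 with GDF10. Grem1 supplied 24.4% and 23.9% of the summed level of all 9 members with vehicle and 19.0% and 20.8% with GDF10. Without Grem1 the other 8 members summed to 265 and 287 CPM per kb with vehicle and 273 and 284 with GDF10, ranges that overlap. These sums are descriptions, with no test.

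Fstl1 encodes a secreted glycoprotein with a follistatin domain that is made by many mesenchymal cells and by muscle. The vehicle libraries held 28941 and 26871 counts, the GDF10 libraries 24794 and 30482. Fstl1 supplied 47.0% to 49.9% of the summed level of the 9 members per kb. At 859 ± 69.1 and 851 ± 33.4 CPM the groups overlapped. The log2 fold change was −0.01 with an interval of −0.20 to 0.18 (edgeR adjusted p = 0.982).

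Fstl3, a follistatin relative that binds activins and lacks the heparin-binding sequence of follistatin, had 50.8 and 54.8 CPM with vehicle and 53.2 and 57.5 CPM with GDF10. The groups overlapped, and the log2 fold change was 0.07 (interval −0.15 to 0.28, edgeR adjusted p = 0.909). It ran from 0.01 to 0.12 when each library was left out and was 0.02 with the GC trend removed. On the other strand Prss57 shares 1157 exon bases, or 47.3%, of Fstl3. Prss57 had 8 counts in vehicle replicate 2 and 0 in the other libraries. How reads on shared bases were counted, and whether by strand, is not given in the sources used here, so the Fstl3 level may leave out reads from the shared bases.

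Fst, which encodes follistatin itself, was scarce. The 4 libraries held 54 and 33 counts (vehicle) and 50 and 55 (GDF10), or 1.51 and 1.11 against 1.67 and 1.58 CPM. Vehicle replicate 2 was the lowest and the groups did not overlap in CPM. Exact Poisson intervals of the raw counts, not scaled for depth, were 40.6 to 70.5 and 22.7 to 46.3 reads with vehicle. With GDF10 they were 37.1 to 65.9 and 41.4 to 71.6 reads, and the intervals of all 4 libraries overlapped. The log2 fold change was 0.30 with a standard error of 0.29 and an interval of −0.39 to 0.99 (edgeR adjusted p = 0.876). Without vehicle replicate 1 it was 0.54 and without vehicle replicate 2 it was 0.10, with no call in either. Fstl3 exceeded Fst per kb by 59.8-fold to 92.3-fold within the libraries, and the count table does not separate follistatin's isoforms.

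Bambi encodes a receptor-like membrane protein without a kinase domain that takes the place of a type I receptor. Vehicle gave 28 and 12 counts, GDF10 22 and 21. The vehicle libraries alone spanned the GDF10 values. The log2 fold change of 0.15 had an interval of −0.96 to 1.25, and it turned to −0.23 without vehicle replicate 2 (edgeR adjusted p = 0.966 with all libraries; no call without that library).

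Some other genes followed Grem1, Chrd and Nbl1 closely over the 4 libraries, by the Euclidean distance between log2 CPM values centred on each gene's mean. Nearest to Grem1 were Dpf1 (distance 0.03), Zfp638 (0.03) and Map3k2 (0.03), with log2 fold changes of −0.32, −0.35 and −0.33. Nearest to Chrd were Dnajb2, Mppe1 and Zfp119b, with distances of 0.02 to 0.03. Nearest to Nbl1 were Arpc1b, Lyplal1 and Rnf44, at 0.01 each. With 4 libraries and 15467 genes such matches are a description only.

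Among 22 other extracellular antagonists, 8 were tested and 14 had at most 6 counts in any library. None of the 8 passed in edgeR, DESeq2 or limma-voom, and edgeR gave 0 of them an unadjusted p under 0.05. The most abundant were Bmper, a BMP-binding matrix protein, at 18.6 CPM per kb, Tmeff1 at 14.3 and Crim1 at 9.89 (means over the 4 libraries). Their log2 fold changes were 0.01, −0.10 and −0.13. Tmeff2 and Dand5 had values of 0.25 and −0.36, and Dand5 ran from −0.79 without GDF10 replicate 1 to −0.01 without GDF10 replicate 2. Grem1 exceeded Bmper per kb 3.44-fold to 4.88-fold within the libraries.

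The ligands that these proteins bind were few. Of 19 BMP, GDF and activin genes listed, 5 were tested, 0 passed in edgeR, DESeq2 or limma-voom, and edgeR gave 1 an unadjusted p under 0.05, beside 5.94% of all genes tested. Inhbb, the activin beta B subunit, was the most abundant at 81.2 and 81.3 CPM per kb with vehicle and 81.9 and 82.0 with GDF10. It exceeded Fstl3 per kb 3.49-fold to 3.91-fold and Fst 225-fold to 335-fold within the libraries. Inhba, the activin beta A subunit, stood at 68.5 ± 6.05 CPM with vehicle and 54.4 ± 8.79 CPM with GDF10, a log2 fold change of −0.33 (95% interval −0.64 to −0.02; edgeR unadjusted p = 0.0397, adjusted p = 0.825). The value for Inhba was −0.18 without GDF10 replicate 1 and −0.51 without GDF10 replicate 2. Like Grem1 it was lowest in GDF10 replicate 1, with 1445 counts against 2114 to 2294 in the other libraries.

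Bmp4 was the only BMP gene tested, at 1.80 CPM per kb with vehicle and 2.42 with GDF10. Its log2 fold change of 0.42 had an interval of −0.19 to 1.03, and was 0.11 without GDF10 replicate 1 and 0.68 without GDF10 replicate 2. Grem1 exceeded it 41.2-fold and 59.3-fold with vehicle and 22.3-fold and 38.2-fold with GDF10. Bmp2 and Bmp7, known targets of gremlin and noggin, had 0 counts in all 4 libraries, as did Gdf10 itself. Gdf11 and Gdf7 had log2 fold changes of −0.04 and 0.98, the latter on 3 to 15 counts and 0.42 to 2.11 when each library was left out.

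**Figure D4:**
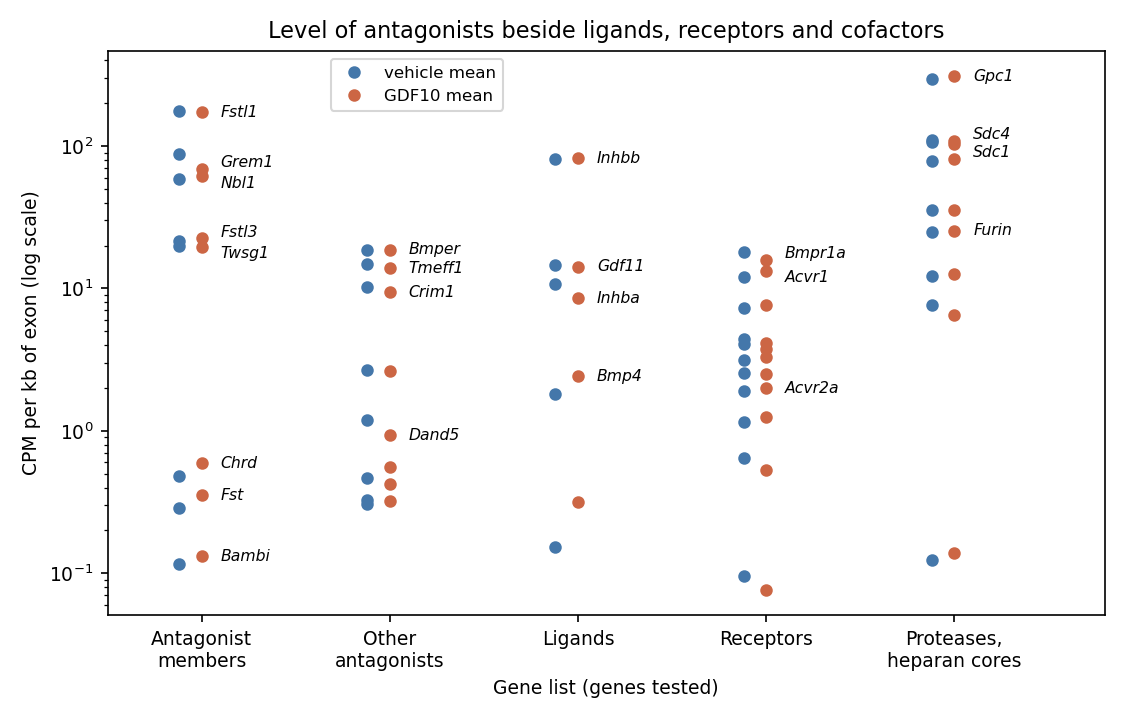
Mean level of each tested gene with vehicle (blue) and GDF10 (red), in CPM per kb of exon on a log axis, by gene list, with some genes named. Fstl1 and Grem1 lie above the ligand Bmp4 (1.80 and 2.42 CPM per kb), while Fst (0.286 and 0.354) lies below the ligand genes Inhbb, Gdf11, Inhba and Bmp4 and above Gdf7 (0.154 and 0.317).

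Receptors and cofactors were present. Of 13 receptors and coreceptors, 11 were tested, with 0 calls in edgeR, DESeq2 or limma-voom and 0 at an unadjusted p under 0.05 in edgeR. Bmpr1a, a BMP type I receptor, was the most abundant at 16.9 CPM per kb and differed by −0.18 on the log2 scale (interval −0.37 to 0.01). Bmpr2, Acvr2a and the coreceptor gene Hjv, listed as Hfe2 in the annotation, had values of −0.23, −0.35 and 0.40, and Acvr1 and Acvr1b of 0.14 and 0.05. When each library was left out Bmpr2 ran from −0.35 to −0.11, Acvr2a from −0.49 to −0.22, Hjv from 0.10 to 0.76 and Acvr1 from 0.01 to 0.29. Removing the length trend gave −0.07 for Bmpr2, and removing the GC trend −0.09 for Bmpr1a. Of 16 genes for ligand or chordin proteases and heparan sulfate core proteins, which hold gremlin, noggin and follistatin at the cell surface, 9 were tested with 0 calls in the same 3 tools and 0 at an unadjusted p under 0.05. Gpc1 stood at 302 CPM per kb, and Gpc1, Sdc1, Sdc2, Sdc4 and Furin had log2 fold changes between −0.04 and 0.05.

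Targets of the pathways stood as follows. Of 16 BMP targets 12 were tested, and 1 was called lower, beside 0.162% of all genes tested called in either direction. The list was chosen with earlier results of these data known, so its count is a description only. The gene called was Smurf1, which encodes a ubiquitin ligase of SMAD proteins. It went from 149 ± 5.19 to 89.0 ± 1.68 CPM (log2 fold change −0.75, edgeR adjusted p = 0.0155). It did not pass with limma-voom (adjusted p = 0.0582), non-robust dispersions (0.0654), without vehicle replicate 1 (0.0991) or without vehicle replicate 2 (0.107), where its log2 fold change stayed between −0.78 and −0.71, and it passed in DESeq2 (adjusted p = 7.26e-12). Id2, whose product blocks differentiation factors, differed by −0.41 on the log2 scale (edgeR unadjusted p = 0.00303, adjusted p = 0.546). The more abundant Id1 and Id3 had values of −0.02 and −0.03, and Smad7 and Msx2 of 0.15 and 0.59.

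Of 16 activin and TGF-beta targets 14 were tested, with 0 calls in edgeR, DESeq2 or limma-voom and 2 at an unadjusted p under 0.05 in edgeR, beside 5.94% of all genes tested. These were Postn and Tagln, of matrix and smooth muscle, with log2 fold changes of −0.20 and −0.25. Postn was −0.12 with the length trend removed and −0.05 with the GC trend removed (limma unadjusted p = 0.0916 and 0.528), and Tagln was −0.13 without vehicle replicate 2. Skil and Pmepa1, feedback genes of SMAD signalling, had values of −0.39 and 0.10, with Skil at −0.11 without GDF10 replicate 1 and −0.72 without GDF10 replicate 2, and the abundant Acta2, Fn1 and Ccn2 of 0.05, −0.08 and −0.18. The medians of the 12 BMP targets and the 14 activin targets were −0.02 and 0.03, beside 0.07 for the 8 antagonists and 0.00 over all genes tested.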

How the data were processed

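The authors deposited 1 table of raw read counts, whole numbers per Ensembl gene with 1 column per library. The tools in the submitters' processing notes, listed without role or order, are DESeq2 1.12.4, StringTie 1.3.3b, HISAT2 2.0, FastQC 0.11.2, bedtools 2.26.0 and Trimmomatic 0.36, and the build is mm10. No counting tool, gene annotation or strand setting is given in the sources used here. Columns named Con were taken as vehicle, the only control. Symbols, positions and exon lengths came from GENCODE M21, which held 51633 of the 51826 identifiers.

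GDF10 was compared with vehicle on the whole table with edgeR 4.0.16 in R 4.3.3 (filterByExpr, TMM scaling, robust dispersions, glmQLFit and glmQLFTest), with Benjamini-Hochberg adjustment over 15467 genes and a threshold of 0.05. A standard error is the log2 fold change over the root of its F statistic, and 95% intervals follow from it. CPM used the scaled library sizes. The tests were tried on 3 sets of simulated counts with the simplified spread given above, where edgeR called 18 of 45801 unchanged genes. Deviations from the group mean had a correlation of 0.07 between libraries of the same replicate number. This value does not settle whether the replicates were paired, and the main test used no pairing. With the replicate number as a block, edgeR gave 1317 genes an unadjusted p under 0.05, against 918 without it. Alternatives included other scalings and filters, DESeq2 1.42.0, limma-voom (limma 3.58.1), each library left out, and removal of a loess trend (span 0.3) against GC content or against exon length, tested in limma.

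The members and gene lists were chosen with earlier results of these data known. The text names all members, and of each other list the called genes, the 4 of lowest p and the 3 of highest CPM per kb; Bmp2, Bmp7, Gdf10 and the genes sharing exons with a member are also named. One further gene of the naming rule is not reported here. For the 3 members of lowest p, the 3 genes nearest in pattern are named.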

Additional observations from a re-analysis of the deposited data

How the results depend on the processing

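The 8 tested antagonists gave 119 log2 fold changes under 15 alternatives, of which 114 kept their sign. Of the other 5, Fstl1 was 0.0161 and Twsg1 0.0166 with the GC trend removed, and when each library was left out Fstl1 ran from −0.0935 to 0.0706 (positive without vehicle replicate 2 and without GDF10 replicate 1) and Bambi from −0.2326 to 0.7121. The number of antagonists called was 0 under 14 alternatives and ran from 0 to 1 when each library was left out. Over all genes the number called, 25 (13 higher, 12 lower), was 65 (33 and 32) with DESeq2, 11 (6 and 5) with limma-voom and 9 (4 and 5) with non-robust dispersions. It ran from 27 to 224 when each library was left out, with 13 to 60 higher and 14 to 164 lower. With the exon length trend removed 20 were higher. With the replicate number as a block it was 23, and the block changed no call of an antagonist: 0 passed, with Grem1 at −0.34 (adjusted p = 0.268). The number of BMP targets called, 1, was 0 with limma-voom, 0 with non-robust dispersions and 0 to 1 when each library was left out. The CPM filter left Bambi, Gdf7 and Msx2 untested, so they have no value there. The cause of these differences was not tested.

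Among the log2 fold changes of 34 other named genes 21 of 508 values changed sign. With the GC trend removed these were Gpc1 (−0.0096), Furin (−0.0092), Sdc4 (0.0047) and Inhbb (−0.0504), and with the length trend removed Fn1 (0.0331). When each library was left out, ranges crossed 0 for Gpc1 (−0.0245 to 0.1219), Furin (−0.0422 to 0.1033), Sdc1 (−0.1761 to 0.0783), Sdc4 (−0.0762 to 0.0497), Crim1 (−0.3155 to 0.0285), Gdf11 (−0.0998 to 0.0205), Acvr1b (−0.0423 to 0.1573), Id1 (−0.0680 to 0.0296), Id3 (−0.0981 to 0.0420), Fn1 (−0.2347 to 0.0684) and Ccn2 (−0.4815 to 0.2009). Depth limits Fst, Chrd and Bambi, whose counts of 12 to 126 gave wide intervals, and left Nog untested.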
